A study of Mus musculus with 48 samples.

Results

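The cytosolic ribosomal protein genes were taken as the rows of the iris-corrected expression table whose mouse symbol is Rps or Rpl followed by a number (with the letters a, x, y or l and a further digit where present), together with Rpsa, Rplp0, Rplp1 and Rplp2, and without the S6 kinase genes and the rows named as pseudogenes. This gave 83 genes of the 20702 in that table, 34 of the small (40S) and 49 of the large (60S) subunit. All 83 were also found among the 46517 genes of the count tables. In the GENCODE M21 annotation 81 of them had a protein-coding transcript. The other two, Rps4l and Rps3a3, are listed there as processed pseudogenes, so they stand here by their symbol only.

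Liver spheroids were grafted into the front chamber of the mouse eye, where they attach to the iris, and the study asked how such explants compare with the tissues they came from. All samples are labelled genotype WT Albino, strain C57BL/6N. The study's methods give adult mice of both sexes. RNA was measured in 5 explants taken 2 months after transplantation (numbered 1, 2, 4, 5 and 6), 3 irises without a graft, 3 endogenous livers, 3 preparations of primary hepatocytes isolated from donor livers, and 2 in vitro spheroid samples made from such hepatocytes. Every sample was sequenced as 3 technical Smart-seq3 libraries, which were summed here, so that n counts samples. An explant sample holds the graft and the iris it grew on, and a hepatocyte preparation is enriched for hepatocytes, not pure. The labels do not say whether samples of a group came from separate animals or cultures. The study states a minimum of 3 animals for its RNA-seq and at least 3 biological replicates per group, while spheroids have 2 samples here. No sample is tied to an animal, so p-values measure the spread between these samples only.

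Summed counts ran from 5449589 to 6789648 in explants, 4596550 to 4881817 in irises, 3523171 to 3871404 in livers, 2718518 to 3573075 in hepatocyte preparations and 3247327 to 3447643 in spheroids. The tissue labels held up against marker genes. The summed level of 8 hepatocyte markers was 13061 to 14099 TPM (counts per exon length, scaled to a common total) in livers, 5743 to 7450 in explants and 1849 to 2216 in irises, and that of 8 iris and anterior eye markers was 7517 to 7914 in irises, 5383 to 6895 in explants and 460 to 474 in livers. In bulk RNA, fewer cells of a type and less RNA per cell cannot be told apart.

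Ribosomal proteins coat the ribosomal RNA of the 2 subunits that make every cytosolic protein. Their genes are scattered over the genome (here over 19 chromosomes, at most 14 on any 1 of them), and most of the proteins are present once in each ribosome. Many of these mRNAs begin with a 5′ terminal oligopyrimidine (TOP) tract, an uninterrupted run of C and U after the cap, through which growth signalling by mTOR and the repressor Larp1 controls their translation. Liver is rich in ribosomes, and it makes most plasma proteins.

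Annotated start sites were compared for that shared feature, which played no part in choosing the genes. RefSeq start sites (GRCm38.p6) were given for 61 of the 83 genes. A run of 8 or more bases that are all C or T lay within 15 bases of a start, on the gene's strand, in 27 of the 61 genes (44.3%), beside 13.9% of all 27025 genes with such an entry. The letters CCGGAAG, the core of an ETS-factor motif, occurred on either strand of the 300 bases around a start in 26 of the 61 (42.6%) beside 9.93% of all genes, and AAGATGG, the core of a YY1 motif, in 10 (16.4%) beside 7.28%. These are matches of letters, and annotated starts need not be the used ones: 24 of the 72 starts fell exactly on a GENCODE start. The windows of 8 genes that the results below turn on are shown from 15 bases before to 15 bases after the start, with the pyrimidine run in capitals. Rps27l and Rpl35a have further annotated starts without a run. Rpl4, Rps27, Rps27l, Rpl35a and Rpl22l1 carried a run, and Rplp0, Rpl7l1 and Rpl39l did not. The runs shown for Rpl4 and Rps27l lay wholly before the annotated start. Runs on either side of a start were counted, so the 27 genes with a run are not all genes with an annotated TOP tract.
Rpl4 (chr9:64173372-64173401, + strand): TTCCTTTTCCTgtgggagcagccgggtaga
Rps27 (chr3:90213634-90213663, - strand): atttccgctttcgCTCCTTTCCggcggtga
Rps27l (chr9:66946071-66946100, + strand): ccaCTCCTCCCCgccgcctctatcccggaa
Rpl35a (chr16:33056467-33056496, + strand): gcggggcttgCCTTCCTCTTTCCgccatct
Rpl22l1 (chr3:28805493-28805522, + strand): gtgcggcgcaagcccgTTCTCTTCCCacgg
Rplp0 (chr5:115559452-115559481, + strand): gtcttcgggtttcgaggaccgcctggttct
Rpl7l1 (chr17:46782642-46782671, - strand): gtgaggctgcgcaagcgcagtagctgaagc
Rpl39l (chr16:10170213-10170242, + strand): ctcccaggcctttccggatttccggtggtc

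The 83 genes covered a wide range of levels. The mean TPM over the 16 samples ran from 1.87 to 874 with a median of 141, 56 genes reached 100 TPM, and the 10 highest genes held 31.2% of the summed level. Among the highest were Rpl8 (874 TPM), a core protein of the peptidyl transferase region, Rpl4 (792), which lines the peptide exit tunnel, and Rps27l (331). The lowest were Rpl39l (1.87) and Rps3a3 (3.42), followed by Rps15a (22.7), Rpl22l1 and Rpl12. The order of levels does not measure how much of each protein a ribosome holds. Across the 83 genes the mean TPM went down as the exon length used for counting went up (Spearman's rho -0.56, over 83 genes that share libraries), and that length, all exons of a gene merged, had a median of 1535 bases against 878 for 1 representative transcript. Ribosomal protein genes also have many processed copies in the genome, and the median gene had 48.7% of its 50-base stretches found in no other annotated gene. That share was lowest for Rps27, at 4.91% for Rpl35 and 6.16% for Rpl5, and it was 93.5% for Rpl8, 83.5% for Rpl4 and 77.6% for Rps27l, so the first 3 are measured less surely. Levels of single genes were therefore compared between samples, and the summed levels and paralog ratios below carry these limits.

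Summed over the 83 genes in TPM, ribosomal protein mRNA was highest in spheroids and lowest in explants. The sum was 15522, 16491 and 14058 TPM in the 3 livers, 14033, 13668 and 14453 in the hepatocyte preparations, 17762 and 15922 in the spheroids, and 13650, 13242 and 13794 in the irises. In the explants it was 12095, 12894, 10906, 12037 and 13875 for numbers 1, 2, 4, 5 and 6. Explant 6 lay above the irises and the other 4 explants lay below every iris, liver, hepatocyte and spheroid sample. The group means were 15357 ± 1225 (SD, n = 3) in livers, 14051 ± 393 (n = 3) in hepatocyte preparations, 13562 ± 286 (n = 3) in irises and 12361 ± 1103 (n = 5) in explants. Both subunits showed the same order, with means of 5367 TPM (small) and 6995 TPM (large) in explants against 5881 and 7682 in irises. As a share of counts the genes took 0.546% to 0.715% in explants, 0.663% to 0.689% in irises, 0.776% to 0.921% in livers, 0.774% to 0.831% in hepatocyte preparations and 0.877% to 0.972% in spheroids. Of the 83 genes, 60 had their highest group mean in spheroids, beside 15.6% of the 18013 genes with a mean of at least 1 TPM, and 56 had their lowest in explants, beside 5.02%.

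**Figure D1:**
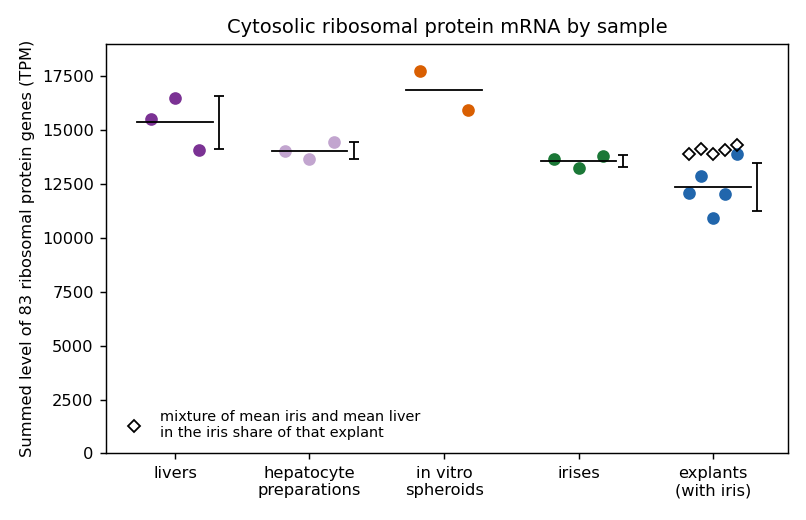
Summed level of the 83 ribosomal protein genes in TPM (y axis) in each sample of the 5 groups (x axis). Filled points are samples, horizontal lines are group means, and bars beside groups of 3 or more are the SD. Open diamonds give, for each explant, the sum that a mixture of mean iris and mean liver would have in its iris share. The explants sit between 10906 and 13875 TPM, each below its own diamond.

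Isolating hepatocytes from liver left the ribosomal protein genes close to where they were. Of the 83 genes 81 had enough counts to be tested (Rpl39l and Rps3a3 did not), and edgeR's quasi-likelihood test, adjusted over all 12236 genes tested by Benjamini-Hochberg, called 0 of them higher and 0 lower in hepatocyte preparations than in livers, where it called 0.785% of all genes higher and 2.84% lower. At an unadjusted p under 0.05 there were 4 such genes, and DESeq2 and limma-voom also called 0. The median log2 fold change was 0.03 (quartiles -0.09 and 0.11) beside 0.01 for all genes tested (quartiles -0.35 and 0.26), and the median standard error was 0.13. The largest estimates were Rps4l (log2 0.63 ± 0.40 SE) and Rpl35a (0.37 ± 0.15) on the high side and Rps12 (-0.41 ± 0.19) and Rplp2 (-0.38 ± 0.21) on the low side, and no adjusted p among them was below 0.173. Rpl15 (0.35 ± 0.12) was called only in a single fit of all 5 groups, at an adjusted p of 0.0177. In the same comparison 7 of 8 immediate early genes, which respond to tissue dissociation within minutes, were called higher, with a median log2 fold change of 4.00. Red cell markers, with 2 of 3 called lower, ran from 438 to 554 TPM in livers and from 324 to 334 in hepatocyte preparations. In TPM 2 of the 81 genes were higher in every hepatocyte preparation than in every liver (7.35% of all genes) and 17 were lower in every one (23.8% of all genes). The part of these cell and stress differences in the ribosomal protein values was not tested.

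Culture of hepatocytes as spheroids changed 1 ribosomal protein gene past the threshold. Rpl35a, a large-subunit protein gene and a Diamond-Blackfan anemia gene, measured 85.4, 92.6 and 94.1 TPM in hepatocyte preparations and 62.7 and 62.1 TPM in spheroids, and the groups did not overlap. It fell by 0.87 ± 0.16 on the log2 scale (edgeR adjusted p = 0.00817) and stayed called in all 11 alternatives, at adjusted p from 0.00098 to 0.0448. Its counts were taken over 3526 merged exon bases, against 519 in its representative transcript. Of its 50-base stretches 48.7% were found in no other annotated gene, and it shared sequence with 20 genes. The part of these in the change was not tested. No gene was called higher. All genes tested were called higher in 12.5% and lower in 13.4% of cases, so 1 lower call among 81 genes lies below the background. With a log2 change over 1 required, 0 of the 81 and 9.11% of all genes were lower (edgeR, where 4 of the 81 had an unadjusted p under 0.05). The next lowest estimates were Rps4l (-0.53 ± 0.21, adjusted p = 0.104) and Rps2 (-0.47 ± 0.17, adjusted p = 0.073), and the highest were Rpl22l1 (0.41 ± 0.25), Rpl13a (0.36 ± 0.16), Rpl12 (0.31 ± 0.15), Rpl5 (0.27 ± 0.15) and Rplp0 (0.23 ± 0.17), none of which passed the threshold. The median was -0.08 beside 0.01 over all genes, with quartiles of -0.18 and 0.02 against -0.49 and 0.49.

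The higher TPM of spheroids and this near-zero median are the same data on 2 scales. In TPM 56 of the 81 tested genes were higher in both spheroids than in every hepatocyte preparation, but so were 44.2% of all genes tested. Rpl35a alone was lower without overlap, beside 15.8% of all genes. When edgeR was run with library size alone, the median of all genes moved to 0.27 and that of the ribosomal protein genes to 0.18. Under that scaling, which called 21.1% of all genes higher and 9.01% lower, Rpl13a (0.62), Rpl12 (0.58), Rpl5 (0.52), Rplp0 (0.49) and Rpl3 (0.46) were called higher and Rpl35a stayed lower (-0.61). The median of the ribosomal protein genes minus that of all genes was -0.09, with a median standard error of 0.16 for single genes, and it ran from -0.13 without hepatocyte preparation 2 to -0.01 without spheroid sample 1.

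Genes that build ribosomes and regulate TOP mRNAs were described beside them, in spheroids against hepatocyte preparations. There 12.5% of all genes tested were called higher and 13.4% lower. Of 30 ribosome biogenesis genes 9 were called higher and 0 lower in spheroids, with a median log2 fold change of 0.49. They included Nop56 (1.32 ± 0.21, adjusted p = 0.00429) and Nop58 (1.12 ± 0.25, adjusted p = 0.0149), core proteins of the particles that methylate ribosomal RNA, Ltv1 (1.23 ± 0.19, adjusted p = 0.00376), which acts in 40S maturation, and the helicase Ddx21 (0.97 ± 0.15, adjusted p = 0.00355). Among 20 elongation factor and other TOP mRNA genes 3 were called higher (Nap1l1, Npm1 and Eif3e) and 0 lower, with a median of 0.05. Of 18 regulators of TOP mRNAs and S6 kinases 3 were higher (Rheb, Eif4ebp1 and Rps6ka3) and Larp1, which binds TOP mRNAs, was lower at -0.79 ± 0.21 (adjusted p = 0.0315). Mitochondrial ribosomal protein genes, a list of 78 taken by symbol, had 1 called higher and 14 lower and a median of -0.29. Of the 14 subunits of the 20S proteasome 0 were called in either direction (edgeR), with a median of -0.26.

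With TMM scaling, irises had lower levels than livers in nearly every ribosomal protein gene, while with library size alone 6 of the named genes changed sign. Of 81 genes tested 80 were called lower in irises and 0 higher, beside 34.5% of all 15459 genes called lower and 39.1% higher. The median log2 fold change was -1.04 (quartiles -1.20 and -0.91) beside 0.11 for all genes (quartiles -0.87 and 1.39), and the genes of the small subunit (median -1.07) and the large subunit were both called lower almost throughout, in 32 of 33 and 48 of 48 genes. The exception was Rps4l (0.31 ± 0.38, adjusted p = 0.49), 1 of the pseudogenes by annotation, with 25.1, 85.8 and 41.3 TPM in the livers and 109, 112 and 131 in the irises. It was called higher without liver 2 (0.93, adjusted p = 0.0141) and measured -0.06 without liver 1. With a log2 change over 1 required as well, 46 genes were called lower, beside 22.1% of all genes. The smallest decreases were in Rpl22 (-0.41 ± 0.14, adjusted p = 0.0249), which lost its call without iris 2, iris 3, liver 2 or liver 3 (adjusted p from 0.0597 to 0.106), and also with no filter on low counts (0.0654) and in the single fit of all groups (0.0536), and in Rpl3 (-0.43 ± 0.09, adjusted p = 0.00288), a protein of the peptidyl transferase centre.

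How large this difference is depends on the scaling, and the call of single genes with it. The 2 tissues differ in most genes, and TMM normalization, which sets a trimmed mean of the fold changes to 0, placed the median of all genes at 0.11, while library size alone placed it at 0.80. With library size alone the median of the ribosomal protein genes was -0.36, 49 were called lower and 2 higher (Rpl3 at 0.26 and Rps4l) beside 20.4% of all genes lower and 58.5% higher, and Rpl22 measured 0.28. In TPM 36 of the 81 genes were lower in every iris than in every liver (18% of all genes tested) and 11 were higher in every iris (66.5% of all genes). A change of scaling moves all genes of a library alike, and the median of the members minus that of all genes was -1.16. That difference was -1.06 with DESeq2 and -1.44 with no filter on low counts. Every iris was also counted more deeply than every liver, and the part of depth in this difference was not tested.

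Within that shift Rps27l fell most. It measured 391, 482 and 429 TPM in livers and 189, 183 and 204 in irises, with a log2 fold change of -2.07 ± 0.13 (edgeR adjusted p = 1.3e-06) under TMM, and it was called lower in all 12 alternatives, from -2.20 to -1.38. Rpl35a (adjusted p = 1.7e-05), Rps26 (-1.45 ± 0.16), Rpl28 (-1.44 ± 0.13) and Rpl32 (-1.42 ± 0.14) came next. At the other end stood Rpl22, Rpl3, Rpl5 (-0.52 ± 0.09) and Rpl15 (-0.56 ± 0.10). Other housekeeping lists were also lower in irises: 18 of 20 elongation and TOP mRNA genes (median -0.86), 70 of 78 mitochondrial ribosomal protein genes (median -0.97) and all 14 of the 20S proteasome subunits (median -1.12). Eef1a1, which delivers aminoacyl-tRNA to the ribosome, measured -1.05 ± 0.09, Eef2, the translocase, -1.02 ± 0.09, and Fau, whose product is a ribosomal protein fused to a ubiquitin-like protein, -1.44 ± 0.11. Hnrnpa1 was called higher (0.99 ± 0.15). Ribosome biogenesis genes were split, with 3 of 30 higher, 12 lower and a median of -0.19.

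**Figure D2:**
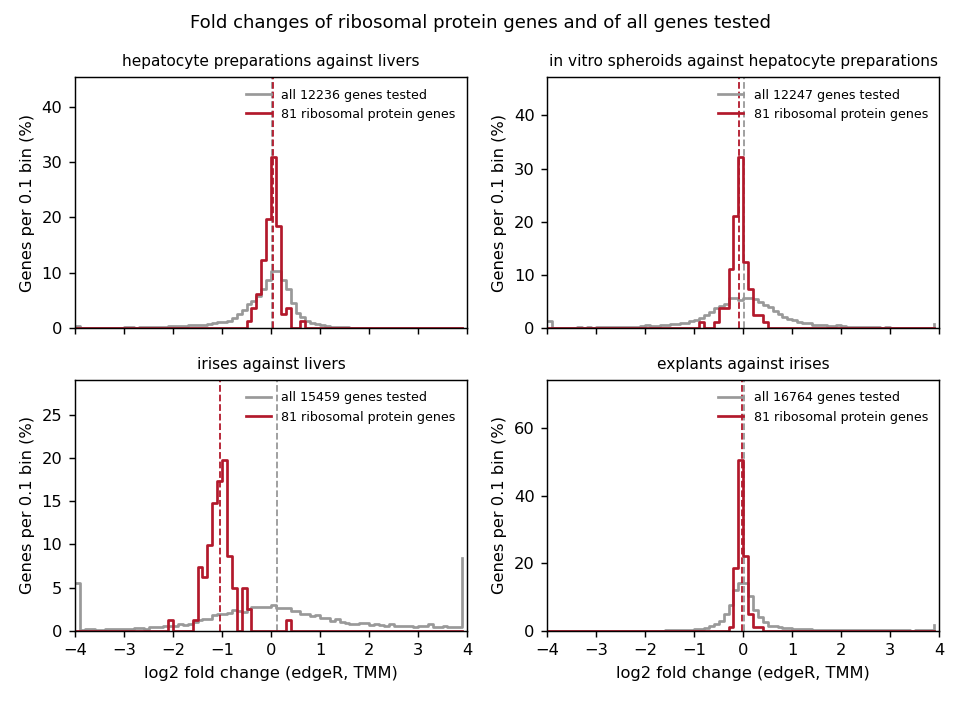
Distribution of log2 fold changes (x axis) as the percentage of genes in each bin (y axis) for ribosomal protein genes (red) and all genes tested (grey) in 4 comparisons, by edgeR with TMM. Dashed lines are medians, and values beyond -4 or 4 are counted in the end bins. The red distribution is narrow and close to 0 in 3 panels and centred on -1.04 for irises against livers.

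Explants before any correction resembled irises in these genes. Of 81 genes tested 0 were called higher and 0 lower in explants than in irises by edgeR, DESeq2 or limma-voom, where edgeR called 9.04% of all 16764 genes higher and 2.74% lower. At an unadjusted p under 0.05 edgeR gave 2 genes, DESeq2 1 and limma-voom 2. The median log2 fold change was -0.03 (quartiles -0.08 and 0.02) beside 0.01 for all genes (quartiles -0.18 and 0.23), with a median standard error of 0.14. The lowest estimates were Rps12 (-0.21 ± 0.22), Rpl5 (-0.19 ± 0.06, adjusted p = 0.0747), Rps4x (-0.17 ± 0.10), Rpsa (-0.16 ± 0.11), whose product is also known as a laminin receptor, and Rpl7 (-0.16 ± 0.08). The highest were Rps27l (0.31 ± 0.20), Rpl32 (0.24 ± 0.16), Rpl22l1 (0.18 ± 0.17), Rpl7l1 (0.17 ± 0.07) and Rps19 (0.14 ± 0.18). In TPM 20 of the 81 genes were lower in every explant than in every iris (13.9% of all genes) and 0 were higher (10.9%). Without explant 6 Rpl5 was called lower (-0.25, adjusted p = 0.0249), and the median over the genes was -0.15. With 1 library per sample chosen for similar totals (1687104 to 2007643 counts) 0 were called (edgeR, 0 at an unadjusted p under 0.05), and the median was 0.02. In contrast all 8 hepatocyte markers were called higher in explants, among them Alb (1.44 ± 0.11) and Hnf4a (4.42 ± 0.49), as were 4 of 7 immediate early genes, 5 of 10 cell cycle genes and Myc (1.31 ± 0.27, adjusted p = 0.0151), a transcription factor that drives ribosome production. Of 30 ribosome biogenesis genes 3 were higher (Ddx21, Polr1b and Nop58) and 0 lower. Macrophage markers summed to 759 to 1957 TPM in explants and 517 to 561 in irises, and their part in these values was not tested.

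Although explants hold iris and liver-derived tissue, their ribosomal protein levels in TPM did not lie between those of irises and livers. With TMM the median log2 fold change against irises was -0.03 beside 0.01 for all genes. With library size alone it was -0.12 beside -0.07. With 1 library per sample of similar totals, also with TMM, it was 0.02 beside -0.03. The median against irises thus differed with the scaling, and its side of the all-gene median with the libraries used. The mean TPM in explants was below both the iris mean and the liver mean for 69 of the 83 genes, beside 9.98% of the 18013 genes with a mean of at least 1 TPM. This was so in the single explants for 72, 55, 75, 68 and 25 of the 83 genes (explants 1, 2, 4, 5 and 6), so explant 6 did not share it for most genes. Rpl4 shows the pattern: it measured 712, 666, 678, 636 and 685 TPM in explants, 784, 788 and 741 in irises and 851, 789 and 779 in livers, and the explants did not overlap with either group. Rps6, the substrate of the S6 kinases, measured 127 to 143 TPM in explants, 162 to 163 in irises and 160 to 169 in livers. Rpl5, a partner of 5S ribosomal RNA, measured 77.8 to 84.8, 95.8 to 102 and 74.0 to 80.3 TPM, so its explants lay below the irises and overlapped with the livers.

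The explants were then set against a mixture of mean iris and mean liver TPM in an iris share for each explant. That share, solved here from the tables before and after correction, was 82%, 68%, 81%, 72% and 59%. The summed ribosomal protein level was 0.871, 0.912, 0.784, 0.856 and 0.970 of that of the mixture, and 79, 72, 80, 77 and 53 of the 83 genes lay below it. Over 4309 genes of similar level (mean of 50 to 600 TPM) the median gene stood at 0.985, 0.989, 0.999, 1.02 and 1.00 of the mixture. The 20S proteasome subunits were also low, with a median gene at 0.861, 0.891, 0.842, 0.887 and 0.970, and elongation and TOP mRNA genes stood at 0.968, 0.957, 0.944, 0.911 and 0.912. Ribosome biogenesis genes went the other way, at 1.09, 1.14, 1.14, 1.25 and 1.15. With spheroids in place of livers as the second part of the mixture the ribosomal protein sums were 0.855, 0.882, 0.769, 0.831 and 0.931, and the biogenesis medians fell to 1.01, 0.952, 1.03, 1.05 and 0.946. Explants were also the most deeply counted group, and the part of depth in this shortfall was not tested.

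**Figure D3:**
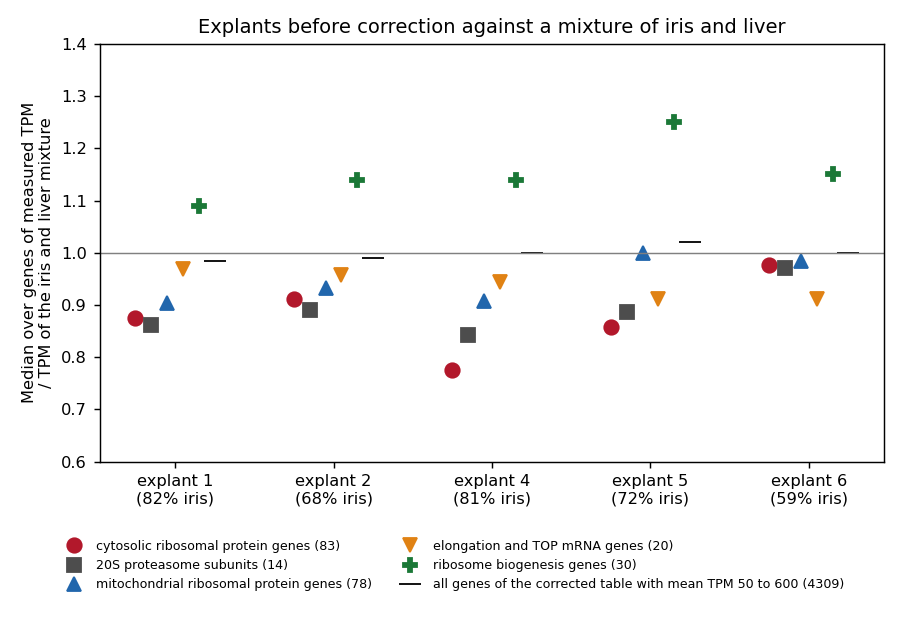
Median over the genes of a list of the measured TPM divided by the TPM of an iris and liver mixture (y axis) for each explant with its iris share (x axis). The number of genes in each list stands in the legend, and the grey line marks equality. Cytosolic ribosomal protein genes lie between 0.775 and 0.976 and ribosome biogenesis genes between 1.09 and 1.25.

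Subtracting the iris part turned this shortfall into low and scattered graft values. The correction takes the iris mean times the iris share from the measured TPM and divides by what is left, so a gene measured below the mixture falls below the liver mean. The corrected sum of the 83 genes was 5776, 11473, 1820, 8116 and 14327 TPM in explants 1, 2, 4, 5 and 6, and 11, 0, 50, 0 and 2 of the genes were at 0. Against livers 79 of the 83 genes had a negative difference on the log2(TPM + 1) scale, with a median of -1.85 beside 0.59 for all 20283 genes tested, but the median standard error was 1.33, and limma called 1 gene lower (3.7% of all genes) and 0 higher (12.8% of all genes). Against spheroids the median was -2.03 beside 0.49, with a median standard error of 1.62, 1 gene called lower (1.1% of all genes) and 0 higher (5.43%). In corrected TPM 28 genes were lower in every explant than in every liver (9.05% of all genes) and 1 was higher (20.4%), and against spheroids 45 were lower (9.92%) and 0 higher (17.8%). Explant 4 weighed most on these values: without it the medians were -0.75 and -0.86. Its deposited corrected column had not been made by the formula of the methods, which was applied here to all 5 explants, and with the columns as deposited 0 of the 83 genes were called in both comparisons by limma, and 0 had an unadjusted p under 0.05.

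The called gene was Rpl4 in both. Its corrected level was 445, 441, 283, 289 and 560 TPM in explants 1, 2, 4, 5 and 6, against 851, 789 and 779 in livers and 1090 and 1061 in spheroids, and the groups did not overlap. The limma difference was -1.04 ± 0.24 against livers (adjusted p = 0.019) and -1.46 ± 0.29 against spheroids (adjusted p = 0.025), and the call was lost without any 1 of the livers (adjusted p from 0.0741 to 0.0782) and, against spheroids, without either spheroid sample (0.213 and 0.235). Rpl5 measured -1.57 ± 0.50 against livers (adjusted p = 0.0639) and Rpl8 -1.08 ± 0.38 (adjusted p = 0.0856). The other end held Rpl7l1 (0.58 ± 0.22, adjusted p = 0.11), with corrected levels of 140, 143, 227, 161 and 139 TPM beside 103, 107 and 108 in livers, and Rpl15 (0.06 ± 0.21). The lowest estimates, Rpl37a (-3.69 ± 1.93), Rplp1 (-3.58 ± 2.10) and Rpl41 (-3.57 ± 2.00), came from genes at 0 in explants 1 and 4.

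Before correction, explants were compared with livers and spheroids on the same scale as an alternative. Then 45 of the 83 genes were called lower and 6 higher than in livers, beside 14.7% of all 18432 genes tested called lower and 55.8% higher. Against spheroids 50 were lower and 3 higher, beside 13.5% of all 18442 genes lower and 45.9% higher. The 6 were Rps4l (1.28), Rpl39l (2.06), Rpl7l1 (0.39), Rpl15 (0.27), Rpl22 (0.26) and Rpl3 (0.26), and each of these also had a higher mean TPM in irises than in livers. After correction Rpl22 measured -0.73 ± 0.28 and Rpl3 -0.67 ± 0.47 against livers, a change of sign.

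Among paralogs, Rps27 and Rps27l were both well above the count filter and are described first. Rps27 belongs to the small subunit, and Rps27l is a close relative that is induced by p53. Rps27 measured 74.8, 89.1 and 79.7 TPM in livers, 71.9, 78.8 and 75.6 in irises and 59.9 to 90.3 in explants, and the groups overlapped. The ratio of Rps27l to Rps27 was 5.23 to 5.41 in livers, 6.36 to 7.58 in hepatocyte preparations, 5.90 and 6.60 in spheroids, 2.33 to 2.69 in irises and 2.79 to 3.22 in explants, and the range in explants lay above that in irises and below that in the 3 liver-derived groups. The Rps27 level is measured less surely, since 1.35% of its 50-base stretches are found in no other annotated gene and it shares sequence with 9 of them. The coding sequences are shown to let the pair be compared. Both have 255 bases including the stop codon, 194 of which (76.1%) are identical, and the 61 that differ are in capitals. Rps27 lies at chr3:90212522-90213651 on the minus strand and Rps27l at chr9:66946086-66949516 on the plus strand (GRCm38).
Rps27: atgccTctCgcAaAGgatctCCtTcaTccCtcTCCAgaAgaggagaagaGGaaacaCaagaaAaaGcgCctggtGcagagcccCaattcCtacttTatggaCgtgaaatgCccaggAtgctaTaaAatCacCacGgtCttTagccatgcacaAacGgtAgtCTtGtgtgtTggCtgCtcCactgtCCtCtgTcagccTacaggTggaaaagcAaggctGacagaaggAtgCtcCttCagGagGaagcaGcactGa
Rps27l: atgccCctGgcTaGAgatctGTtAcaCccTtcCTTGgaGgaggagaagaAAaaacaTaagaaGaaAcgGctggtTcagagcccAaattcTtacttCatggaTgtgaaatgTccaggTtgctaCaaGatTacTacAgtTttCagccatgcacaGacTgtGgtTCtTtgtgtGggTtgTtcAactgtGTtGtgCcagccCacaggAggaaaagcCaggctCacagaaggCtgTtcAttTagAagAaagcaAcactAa

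The other pairs involve genes of low level or genes annotated as pseudogenes, except Rpl7 and Rpl7l1 (means of 136 and 125 TPM). The ratio of Rps4l to Rps4x ran from 0.0915 to 0.302 in livers, 0.257 to 0.304 in hepatocyte preparations, 0.189 to 0.195 in spheroids, 0.365 to 0.441 in irises and 0.385 to 0.56 in explants. That of Rps3a3 to Rps3a1 lay between 0.0053 and 0.0161 in every sample. Rpl39l, a paralog of Rpl39 known for its use in the male germ line, was at 0 in all 3 livers and both spheroids, at 0.843, 0 and 0 TPM in hepatocyte preparations, at 3.61, 5.41 and 0 in irises and at 1.97, 4.31, 2.35, 10.3 and 1.15 in explants, too few counts for the test. Rpl39 itself measured 63.6, 68.2 and 58.9 TPM in livers and 79.5 and 79.7 in spheroids. The ratio of Rpl22l1 to Rpl22 was 0.434 and 0.531 in spheroids and between 0.189 and 0.352 in every other sample. Rpl7l1 stood at 0.740 to 0.923 of Rpl7 in irises, livers, hepatocyte preparations and spheroids. In explants it stood at 1.03 to 1.26, and the ranges did not overlap. Of the 50-base stretches of Rpl7 46.7% were found in no other annotated gene, and of those of Rpl7l1 90.8%. Rpl7 shared sequence with 13 genes and Rpl7l1 with 520, and the part of this in the ratio was not tested. These ratios are given as levels and were not tested.

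**Figure D4:**
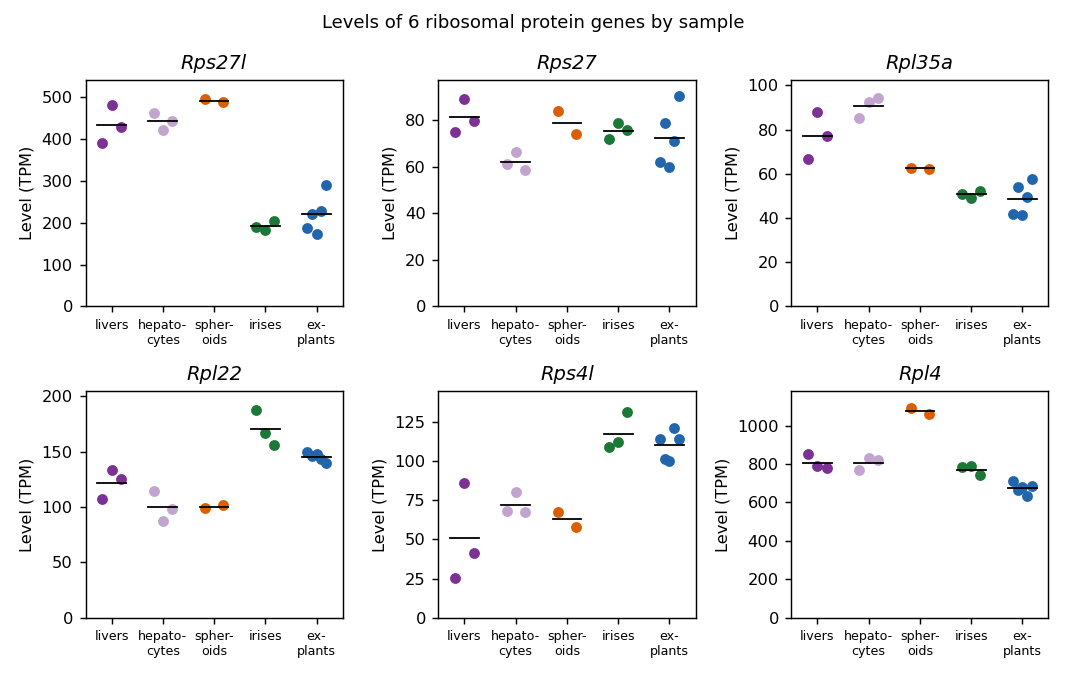
Level in TPM (y axis) of 6 ribosomal protein genes in each sample of the 5 groups (x axis), with group means as lines. Rps27l is lower in irises (183 to 204 TPM) and explants (172 to 291 TPM) than in the other groups, Rpl35a has its highest mean in hepatocyte preparations, and Rpl4 is highest in spheroids and lowest in explants.

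Members with roles of their own are given with TMM scaling. The P-stalk proteins, which recruit elongation factors to the ribosome, are Rplp0, Rplp1 and Rplp2. All 3 were called lower in irises than in livers (-1.03 ± 0.10, -1.40 ± 0.17 and -1.22 ± 0.20). There 80 of the 81 members tested and 34.5% of all genes were called lower. In the other 3 count comparisons 0 of the 3 were called (edgeR). Rpl5 and Rpl11 carry 5S ribosomal RNA into the large subunit and bind Mdm2 when assembly fails. Both were lower in irises (-0.52 ± 0.09 and -1.12 ± 0.11), and neither was called in the other 3 count comparisons as fitted. Rpl5 was called lower in explants than in irises without explant 6 and with library size alone (-0.28), and higher in spheroids with library size alone. Rps6 measured -0.91 ± 0.10 in irises against livers, 0.13 ± 0.11 in hepatocyte preparations against livers and 0.00 ± 0.15 in spheroids against hepatocyte preparations. Rps27a, made as a fusion with ubiquitin, measured -1.15 ± 0.13, 0.03 ± 0.14 and -0.14 ± 0.16. All 18 Diamond-Blackfan anemia genes of the list are members. All 18 were called lower in irises, as were 80 of the 81 members tested, and Rpl35a was the 1 also called in spheroids.

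The spread within groups was compared last. The median over the 83 genes of the SD among samples was 4.89% of the mean in irises, 5.61% in hepatocyte preparations, 9.76% in livers, 9.19% in spheroids and 11.5% in explants. For 4311 genes with a mean of 50 to 600 TPM it was 5.91%, 11.3%, 12.6%, 12.4% and 10.5%. In hepatocyte preparations the values of Rps6 were 164, 162 and 164 TPM and those of Rpl5 73.8, 75.8 and 74.3.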

How the data were processed

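Bulk RNA was measured by Smart-seq3 in 48 libraries of 16 samples. Per the labels and the study's methods the authors aligned reads to mm10 with TopHat2, removed duplicates with UMI-tools and SAMtools, and counted with featureCounts (1.4.6-p5) over exons, with no strand option. The deposited counts are raw. The deposited TPM used merged exon length. The deposited corrected table holds a signal, TPM minus the iris part, with negative values at 0. Removing duplicates can cap dense genes, and its part in these levels was not tested. The densest gene of 500 bases or more reached 1.7 counts per exon base in a library, and the ribosomal protein genes at most 0.635. Rows that name spike-ins (92 rows, 418 counts in all) were left out.

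Counts were summed over the 3 technical libraries and matched the deposited sums in every cell. Comparisons of counts used the quasi-likelihood test of edgeR 4.0.16 under R 4.3.3, on the 2 groups compared, after its default filter on low counts and with TMM factors. Iris-corrected explants were compared with limma 3.58.1 (trend) on log2(TPM + 1), for genes with a mean of at least 1 TPM, after the iris share had been solved from the deposited tables and the methods' formula applied to all 5 explants. A call is a Benjamini-Hochberg adjusted p below 0.05 over all genes tested, with no fold limit. Scripts were tested on simulated data. Alternatives were DESeq2 1.42.0, limma-voom, library size alone, no filter, a single fit of all groups, a fold limit, a replicate block and leaving out each sample; for corrected values also other pseudocounts and filters, the deposited columns and TPM before correction. Depth-matched libraries were added after seeing the data. Named genes were the 5 highest and 5 lowest fold changes per comparison, the 5 highest and lowest levels, and fixed members by role and paralogy. The members and gene lists were chosen with earlier results of these data known, and the mitochondrial ribosomal list was added later. Start sites are RefSeq's (GRCm38.p6), and transcripts and coordinates are GENCODE M21's, whose version may differ from the one used for counting. Fold changes of TPM with the pseudocount understate changes of low genes. Values of a few single genes that the rule names are not reported here.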

Additional observations from a re-analysis of the deposited data

Results flagged for a closer look

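Among the 5 explants, 88 series of values (named genes and summed levels, before and after iris correction) were examined for a sample far from the others, and 2 were flagged by Dixon's ratio (gap to the nearest sample over the range) above its 95% critical value. Chance flags about 5% of such series. Both are iris-corrected levels. Rpl39l measured 0, 7.08, 0, 29.1 and 0 TPM in explants 1, 2, 4, 5 and 6, and explant 5 stood apart with a ratio of 0.757. Rpl7l1 measured 140, 143, 227, 161 and 139 TPM, and explant 4 stood apart with a ratio of 0.75. Before correction the values of explant 4 and explant 5 for these genes were 151 TPM for Rpl7l1 and 10.3 TPM for Rpl39l.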

How the results depend on the processing

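Over all 6 comparisons, 136 of the counts of called genes under an alternative stayed within 1.5 times the reported count and 26 did not. For named genes 3021 values kept their side of the threshold, 68 gained and 23 lost a call, and 9 reversed. Estimates without a call could change sign among the 3021, as for Rps19 in explants against irises (-0.02 to 0.23 over the alternatives). Hepatocyte preparations against livers changed in the single fit of all groups (1 called higher, beside 5.52% of all genes). Spheroids against hepatocyte preparations changed with library size alone (5 higher, beside 21.1% of all genes) and in the single fit (2 lower, beside 14.2%). With a log2 change over 1 required, 0 were lower, beside 9.11%. Irises against livers changed with library size alone (2 higher, 49 lower, beside 58.5% and 20.4% of all genes) and with the fold limit (46 lower). Library size alone there reversed Rpl15 (0.12), Rpl22 (0.28), Rpl3 (0.26), Rpl5 (0.16), Rpl7l1 (0.12) and Rps15a (0.11). It gave 2 lower genes, Rpl7 and Rpl5, in explants against irises, beside 5.31% of all genes. For iris-corrected explants, TPM before correction gave 6 higher and 45 lower against livers and 3 higher and 50 lower against spheroids, beside 14.7% and 13.5% of all genes called lower and 55.8% and 45.9% higher, and reversed Rpl22 (0.26 and 0.53) and, against livers, Rpl3 (0.26). The deposited columns gave 0 lower in both. A mean of at least 10 TPM gave 2 lower against livers (Rpl4 and Rpl5), beside 6.29% of all genes. The cause was not tested.

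Leaving out each sample gave 0 to 1 higher and 79 to 80 lower genes for irises against livers. For explants against irises it gave 0 to 1 lower (Rpl5, without explant 6, beside 3.59% of all genes). Corrected explants had 0 to 4 lower against livers and 0 to 1 lower against spheroids. The 4 were Rpl4, Rpl5, Rpl8 and Rps3a1, without explant 6, where 4.57% of all genes were called lower. Without explant 4, 3 (Rpl4, Rpl5 and Rps6) were called, beside 4.04% of all genes. Where a single spheroid sample is left, it is assumed to vary like the other group.

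Replicate numbers are shared between groups. The deviations of same-numbered samples from their group means had correlations from -0.13 to 0.14. The groups are small and differently numbered pairs were not compared, so these values cannot tell whether same-numbered samples share a donor or batch. The replicate block gave 0 lower genes in both corrected comparisons, where it called 0 of all genes tested in either direction. It gave 1 lower in spheroids, beside 10.5% of all genes, and 80 lower in irises, beside 33%. Depth limits the low genes: Rpl39l and Rps3a3 had too few counts to be tested.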
